A study of Mus musculus with 3 samples.

Results

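The genes of the mouse major histocompatibility complex (MHC), named H2 in this species, and the machinery that loads their products with peptide were followed in sorted leptomeningeal cells. Every gene row whose symbol starts with H2- was taken, together with B2m, Tap1, Tap2, Tapbp, Psmb8, Psmb9, Psmb10, Nlrc5, Ciita and Cd74. This gave 54 members, 44 of them H2- rows, out of 46983 gene rows. No expression value entered that choice. The leptomeninges, the thin inner membranes around the brain, were dissected from mice, dissociated and sorted by flow cytometry, and the pia-enriched fraction was sequenced in bulk. There were 3 libraries, numbered as in the labels, all from mice given vehicle only, so no treatment was compared here. What the vehicle accompanied, and the strain, sex, age and genotype of the mice, were not stated in the labels, nor were the surface markers used for sorting. The labels did not say whether the 3 samples came from separate animals. Every p-value below therefore rests on these samples only, and the spread between them may be technical.

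Class I molecules carry peptides of proteins made inside the cell to the surface for CD8+ T cells. The proteasome cuts the proteins, the TAP transporter brings the peptides into the endoplasmic reticulum, and tapasin holds the empty heavy chain and its light chain, beta-2 microglobulin, at the transporter until a peptide binds. Class II molecules are pairs of an alpha and a beta chain that carry peptides of engulfed protein to CD4+ T cells. They are kept from early loading by the invariant chain, and H2-DM removes the last piece of that chain. Class I is made by most cells. Class II is made mainly by dendritic cells, macrophages and B cells, and can be induced elsewhere by interferon-gamma through the transactivator Ciita.

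The genes of both classes are known to share a control module upstream of their start, in which a TGANG box (the X2 box) and an ATTGG box (the Y box) lie at a set spacing and, with factors bound to the box beside them, are read by Nlrc5 for class I and by Ciita for class II. The stretches before H2-K1 (chr17:34000348-34000597, minus strand), B2m (chr2:122147437-122147685, plus strand), H2-Aa (chr17:34287824-34288073, minus strand) and H2-Eb1 (chr17:34305617-34305866, plus strand) are shown because these genes were among the abundant members of each class. They are RefSeq sequences of GRCm38.p6 from the C57BL/6J reference, 5′ to 3′ toward the gene, not sequences of the mice used. Capitals mark a TGANG box followed after 16 to 22 bases by ATTGG. In H2-Eb1 the capitals cover a pair of TGANG matches that overlap.
H2-K1: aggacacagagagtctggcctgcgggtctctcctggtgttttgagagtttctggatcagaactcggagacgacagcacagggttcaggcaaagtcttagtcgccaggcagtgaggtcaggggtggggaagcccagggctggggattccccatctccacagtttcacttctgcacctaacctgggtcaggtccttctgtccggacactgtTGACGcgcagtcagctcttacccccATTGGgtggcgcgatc
B2m: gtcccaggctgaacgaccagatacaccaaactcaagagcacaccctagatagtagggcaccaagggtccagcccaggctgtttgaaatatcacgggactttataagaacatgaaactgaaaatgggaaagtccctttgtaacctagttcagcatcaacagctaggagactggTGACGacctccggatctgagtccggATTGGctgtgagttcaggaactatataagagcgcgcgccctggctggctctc
H2-Aa: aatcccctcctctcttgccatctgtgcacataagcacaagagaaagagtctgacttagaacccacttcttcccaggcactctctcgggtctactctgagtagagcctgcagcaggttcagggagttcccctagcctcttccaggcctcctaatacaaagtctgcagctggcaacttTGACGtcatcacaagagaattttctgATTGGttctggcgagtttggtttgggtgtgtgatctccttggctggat
H2-Eb1: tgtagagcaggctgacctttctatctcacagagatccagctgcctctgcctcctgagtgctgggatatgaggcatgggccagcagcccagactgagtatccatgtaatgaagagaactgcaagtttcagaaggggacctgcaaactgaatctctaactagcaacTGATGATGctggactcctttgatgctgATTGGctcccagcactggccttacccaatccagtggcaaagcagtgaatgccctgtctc

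RefSeq windows, from 250 bases before to 50 bases after a gene's start, were matched by symbol for 37 of the 54 members. A TGANG box followed at that spacing by ATTGG, on either strand, was in a window of 12 of these 37 members, against 2.34% of all 27025 genes with a window. The spacing was chosen after these sequences had been seen, so the count is a description. All 12 pairs, shown from the first box to the second so that the spacing can be compared, lay on the strand of the gene.
B2m: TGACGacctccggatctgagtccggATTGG
H2-D1: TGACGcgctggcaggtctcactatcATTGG
H2-K1: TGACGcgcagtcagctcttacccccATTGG
H2-Aa: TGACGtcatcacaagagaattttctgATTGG
H2-Eb1: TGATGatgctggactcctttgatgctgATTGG
H2-Eb2: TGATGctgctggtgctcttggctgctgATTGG
H2-M3: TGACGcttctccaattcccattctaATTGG
H2-Q6: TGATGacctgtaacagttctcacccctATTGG
H2-Q7: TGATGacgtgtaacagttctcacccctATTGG
H2-DMb1: TGATGctaggctgattcactcagtgATTGG
H2-Ob: TGATGcaaagtcttcgctcttgATTGG
H2-DMb2: TGATGctaggctaagtcacttagtgATTGG
B2m, H2-D1, H2-K1 and H2-M3 had TGACG and a gap of 20 bases, H2-Q6 and H2-Q7 had TGATG and a gap of 22, with a TGACG that overlaps it in H2-Q7, and the class II gaps ran from 17 bases in H2-Ob to 22 in H2-Eb1 and H2-Eb2. The pair was in 10 of the 19 members with a window and a mean of at least 1 count per 1000000, and in 2 of the 18 below that level. That split is a description too, because the spacing was chosen from these sequences. No such split was made over all genes, and a link of the pair to level was not tested. The pair was in B2m, 2 of 2 classical class I genes and 3 of 3 classical class II genes. It was in 3 of 20 non-classical class I genes and 3 of 5 non-classical class II genes. It was in 0 of 5 peptide supply and loading genes, and not in H2-Ke6. H2-T23 and H2-T22, though abundant, were without it. Class and level were not separated in the split above. H2-Eb2, a class II beta gene with the pair, had no count in any library. TTTCACTT, searched on both strands, was in 9 of 37 members against 1.91% of genes, and ATTGG alone, which is part of the pair, in 32 of 37 against 41.1%. The Tap1 and Psmb9 windows overlapped by 275 bases on opposite strands. The pairs outside the stretches printed above are, all on the plus strand of GRCm38.p6, H2-D1 chr17:35262993-35263022, H2-Eb2 chr17:34325548-34325579, H2-M3 chr17:37270188-37270217, H2-Q6 chr17:35424744-35424775, H2-Q7 chr17:35439088-35439119, H2-DMb1 chr17:34153105-34153134, H2-Ob chr17:34238826-34238852 and H2-DMb2 chr17:34145134-34145163. The H2-D1, H2-DMb1 and H2-DMb2 pairs lie inside the gene as GENCODE M21 draws it. Members with no window in that table included H2-Ab1, Tap2, Ciita and Nlrc5. Cd74 was not searched and is not among the 37, so whether it has a window or the pair was not tested.

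The libraries held 21002860, 28704952 and 25338616 gene counts, and members made up 0.654%, 0.685% and 0.666% of them. Values are counts per 1000000 (CPM) of the scaled library size. Where a gene had no count, up to 3 counts could have been missed, or 0.152, 0.101 and 0.116 CPM in the respective libraries. All 7 fibroblast markers stood above 100 CPM, with summed levels of 24202, 29630 and 25814 CPM. Library 1 stood apart from the others. Its 12 macrophage and microglia markers summed to 17.9 CPM against 286 and 800 in libraries 2 and 3, its 6 choroid plexus markers to 111 CPM against 3225 and 4901, and edgeR's biological coefficient of variation, the square root of the common dispersion, was 0.273 without it, against 0.404 without library 2 and 0.429 without library 3. Removing the trends on GC content and exon length from all libraries lowered that coefficient from 0.372 to 0.305. The trends were fitted to these same libraries, so some fall follows by construction. Differences of library 1 are given also with those trends removed.

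Of the 54 members, 28 reached a mean of 1 CPM over the 3 libraries, 11 reached 100 CPM and 10 had no count in any library. The 11 were B2m, both classical class I heavy chains, H2-T23, the 3 classical class II chains with counts, Cd74, Tapbp, Tap2 and Psmb10. Levels of different genes were compared per kilobase of annotated exon. On that scale B2m stood highest at 2274 ± 426 CPM per kb (SD, n = 3), rank 12 of the 14409 genes tested. Cd74 (352 ± 130), H2-D1 (311 ± 25.5) and Tapbp (311 ± 21.6) came next and did not differ from each other beyond their spread. H2-K1 (169 ± 14.3) and H2-T23 (104 ± 52.8) followed, at ranks 278 and 470.

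**Figure D1:**
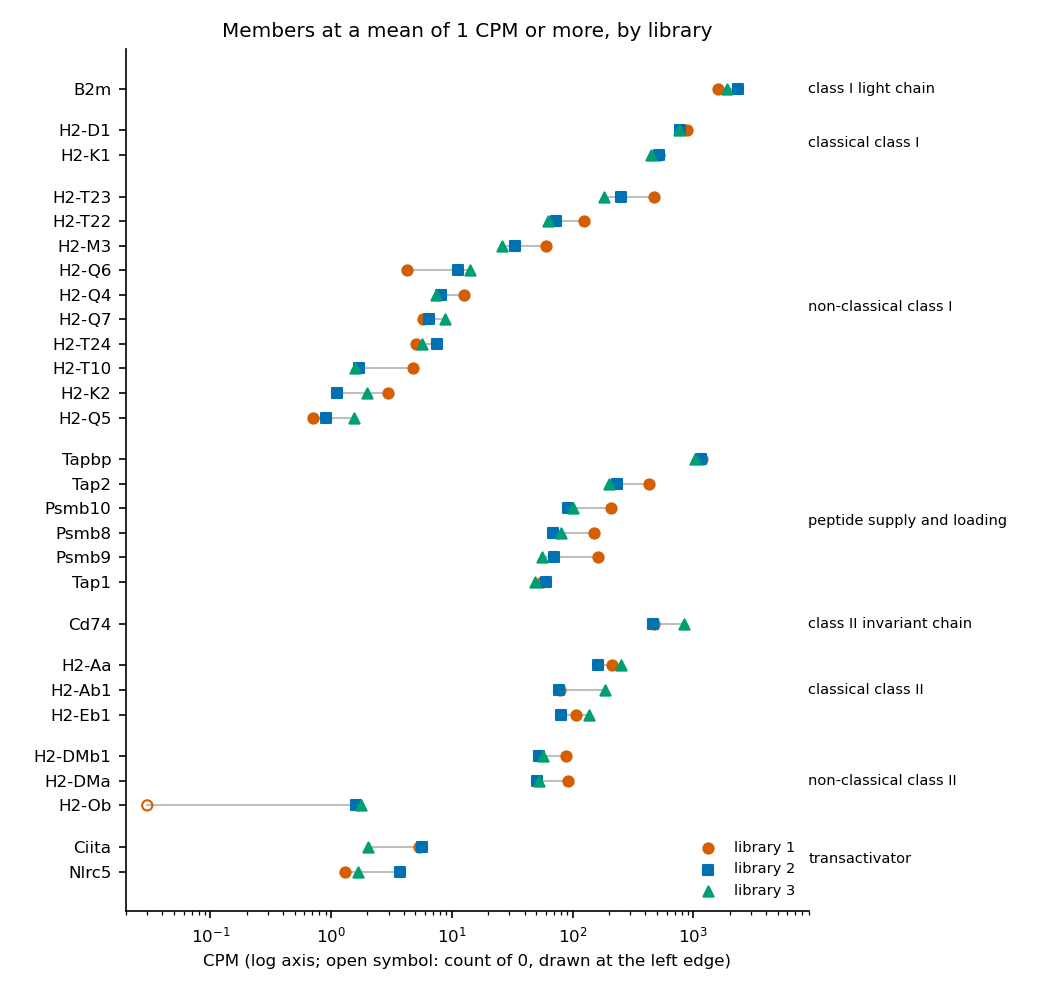
Level of each member with a mean of at least 1 CPM in the 3 libraries, in CPM on a log axis, grouped by class; points are single libraries and grey lines join the lowest to the highest. B2m ran from 1610 to 2340 CPM, the classical class I points lay close together, and H2-Ob had no count in library 1.

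With 1 group, the question the design leaves is which genes varied between libraries more than other genes of their abundance. In edgeR's goodness-of-fit test with Benjamini-Hochberg adjustment over all genes, 0 of the 28 members tested were called variable, and 63 of 14409 genes, 0.437%, were called overall. Library 1 was lowest in 55 of those 63 (0.382% of all genes) and highest in 5 (0.0347%). At an unadjusted p under 0.05 the test gave 1 member, Psmb9, against 7.04% of all genes. The 28 tested members are those with enough counts in every library, not all members. Their median range over libraries was 0.86 on the log2(CPM + 1) scale, against 0.67 over all tested genes. In simulated data a change in library 1 was recovered by this test for 13 of 100 genes at 4-fold and 62 of 100 at 8-fold. Smaller changes were not simulated.

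The classical class I heavy chains and their light chain were abundant. B2m, the light chain shared by all class I molecules (chr2:122147686-122153083), stood at 1610, 2340 and 1918 CPM in libraries 1, 2 and 3. H2-D1 (chr17:35262730-35267499) stood at 879, 769 and 761 CPM (803 ± 65.8, SD, n = 3) and H2-K1 (chr17:33996017-34000347) at 517, 522 and 447 CPM (495 ± 41.9). Both heavy chains differed little over the libraries, and B2m was lowest in library 1. The summed level of both heavy chains was 1299 ± 93.7 CPM, and none of these 3 genes was called variable (edgeR adjusted p = 1 each). Removing the GC and length trends turned the small differences of library 1 around: B2m went from -0.40 to 0.19, H2-D1 from 0.20 to -0.17 and H2-K1 from 0.10 to -0.21, on the log2 scale against the mean of libraries 2 and 3.

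Within each library H2-K1 lay below H2-D1, by -0.95, -0.74 and -0.95 on the log2(CPM per kb + 1) scale (-0.88 ± 0.12, SD, n = 3; two-sided exact sign-flip permutation test, p = 0.25, the smallest that 3 libraries allow, adjusted p = 0.281 over 9 pairs). The size of that gap rests on the length used. Per kilobase of the principal transcript, a length added after the data had been seen, it was -0.32. The genes also share sequence that a single 50-base read cannot assign without its mate. Their longest common run of coding sequence, shown because a read inside it matches both genes, was 91 bases in exon 4 of each, at chr17:33997343-33997433 on the minus strand in H2-K1 and chr17:35265911-35266001 on the plus strand in H2-D1.
Shared run of H2-K1 and H2-D1: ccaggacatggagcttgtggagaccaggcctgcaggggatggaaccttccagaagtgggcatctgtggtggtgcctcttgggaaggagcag
The whole run also lies inside a run of 265 coding bases shared by H2-Q6 and H2-Q7, so a read in it matches those genes as well. Of the 50-base windows along the longest transcript, 8.1% in H2-K1 and 14.3% in H2-D1 occurred in another gene.

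The non-classical class I genes were led by H2-T23, and the most abundant of them were highest in library 1. H2-T23 (chr17:36029773-36032855), whose product binds leader peptides of classical heavy chains and is read by receptors of natural killer cells, stood at 473, 250 and 181 CPM. H2-T22, whose product is bound by some gamma-delta T cell receptors, stood at 124, 73.3 and 63.0 CPM. H2-M3, which presents formylated peptides of bacteria and mitochondria, stood at 60.2, 33.4 and 25.9 CPM. All 3 were highest in library 1 and lowest in library 3. Library 1 exceeded the mean of the others by 1.15, 0.86 and 1.01 on the log2 scale, and by 0.83, 0.77 and 0.75 with the trends removed. None was called variable (edgeR adjusted p = 0.788 for H2-T23 and 1 for H2-T22 and H2-M3).

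The Q-region genes were low, and of the 4 at 1 CPM or more only H2-Q4 shared that order. H2-Q6 stood at 4.25, 11.3 and 14.2 CPM and was lowest in library 1, with a log2 difference of -1.38, or -1.76 with the trends removed (edgeR adjusted p = 0.936). H2-Q4 stood at 12.7, 8.16 and 7.36 CPM, and H2-Q7 at 5.76, 6.48 and 8.75 CPM. H2-Q5, a polymorphic pseudogene in the annotation, stood at 0.708, 0.907 and 1.54 CPM. The 8 Q-region genes summed to 27.6 ± 4.25 CPM, with little spread between libraries. In the T region, H2-T24 stood at 5.06, 7.59 and 5.67 CPM. H2-T10, a close copy of H2-T22, stood at 4.80, 1.71 and 1.58 CPM and was highest in library 1 like its copy. The pseudogene H2-K2 stood at 2.98, 1.11 and 1.97 CPM.

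All 29 non-classical class I genes summed to 695, 395 and 312 CPM (467 ± 202, SD, n = 3), a wider spread than that of the classical pair. Of the 29, 10 reached 1 CPM, 12 had counts below that level, with means from 0.0112 CPM (H2-Q2 and H2-M6-ps) to 0.239 CPM (H2-M9), and 7 had none. The others below 1 CPM were H2-Q1, H2-Q10, H2-T3, H2-Bl, H2-M2, H2-M5, H2-M10.2, H2-M10.5 and H2-M11. Those 7 were H2-M1, H2-M10.1, H2-M10.3, H2-M10.4, H2-M10.5-ps1, H2-M10.6 and H2-Q3. In the M region, 14 genes in all, H2-M3 was the only gene at 1 CPM or more, and 6 had no count. H2-Q10, known as a secreted heavy chain of liver, stood at 0.0506, 0.0336 and 0.231 CPM, near the level of 3 counts. Values of single genes in this family are uncertain because they share sequence: 35.8% of the 50-base windows of H2-T22 occurred in another gene, 35.4% of those of H2-Q5, 32.0% of H2-Q6, 31.6% of H2-T10, 28.4% of H2-Q7 and 15.0% of H2-T23. H2-M3, at 0.6%, was nearly free of it, and its libraries came in the same order as those of H2-T23 and H2-T22.

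**Figure D2:**
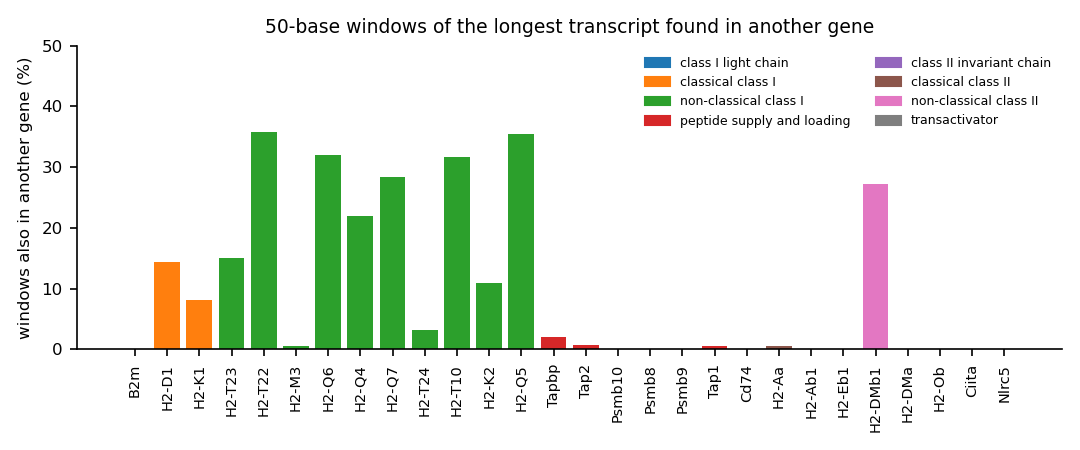
Share of the 50-base windows along each gene's longest transcript that occur in another annotated gene, in percent, for members at 1 CPM or more, with bars coloured by class. The tallest bars are H2-T22, H2-Q5, H2-Q6, H2-T10, H2-Q7 and H2-DMb1, H2-M3 and H2-T24 are low at 0.6% and 3.2%, and B2m, Cd74, the proteasome subunits, H2-Ab1 and H2-Eb1 are at 0.

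Genes that supply and load class I peptides were all transcribed. Tapbp, which encodes tapasin, stood at 1184, 1159 and 1038 CPM, and Tap1, a chain of the peptide transporter, at 55.5, 59.9 and 48.9 CPM, both nearly level. Tap2, the other chain, stood at 427, 235 and 201 CPM and was highest in library 1. The inducible proteasome subunits followed the order of Tap2 in that respect: Psmb8 stood at 151, 68.4 and 80.5 CPM, Psmb9 at 163, 70.0 and 56.0 CPM, and Psmb10 at 207, 92.5 and 101 CPM. For all 3, library 1 lay above libraries 2 and 3.

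Library 1 exceeded the others by 0.97 (Tap2), 1.01 (Psmb8), 1.37 (Psmb9) and 1.09 (Psmb10) on the log2 scale, and by 0.63, 0.81, 1.10 and 0.64 with the trends removed. Psmb9 had the smallest p of all members (edgeR unadjusted p = 0.0279, adjusted p = 0.548). Tap1 and Psmb9 are neighbours that start back to back, their windows overlap as given above, and 212 bases of their exons overlap on opposite strands. Their levels did not move alike, since Tap1 differed in library 1 by 0.04 and Psmb9 by 1.37. Reads in that overlap cannot be assigned if counting ignored strand, which was not given in the sources used here.

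The constitutive counterparts were set beside the inducible subunits within each library. Psmb8 lay below Psmb5 by -2.19 ± 0.13 on the log2(CPM per kb + 1) scale and Psmb9 below Psmb6 by -2.38 ± 0.49 (SD, n = 3), each in 3 of 3 libraries (exact sign-flip permutation test, p = 0.25, adjusted p = 0.281). Psmb10 lay above Psmb7 by 1.45 ± 0.67 in 3 of 3 libraries, with the same p. Per kilobase of the principal transcript the gaps were -1.16, -2.21 and 0.30, and Psmb10 then lay below Psmb7 in library 3 (-0.23). Tap1 lay below Tap2 by -2.73 ± 0.54 in 3 of 3 libraries (p = 0.25, adjusted p = 0.281, exact), and by -2.04 per kilobase of the principal transcript. Psmb5 and Psmb6 were also highest in library 1, at 172, 83.7 and 112 CPM and at 363, 161 and 233 CPM, and Psmb7 was not, at 87.6, 77.1 and 105 CPM. Library 1 differed from the mean of the others by 0.83, 0.90 and -0.04 for Psmb5, Psmb6 and Psmb7 on the log2 scale, and by 0.25, 0.66 and 0.84 with the trends removed, so that contrast did not hold.

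**Figure D3:**
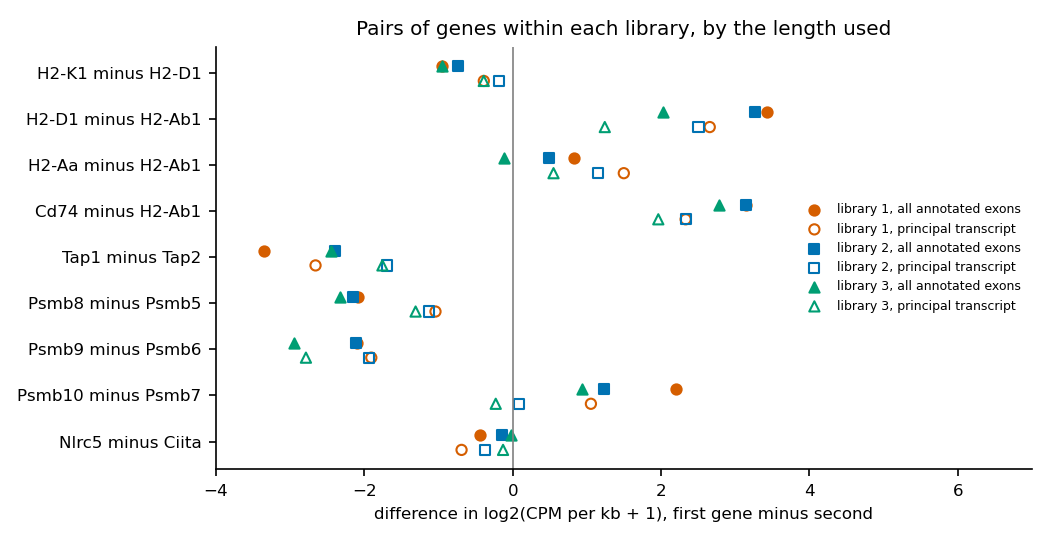
Difference between the genes of each pair within a library on the log2(CPM per kb + 1) scale, the first gene minus the second; filled points use all annotated exons as length and open points the principal transcript. Most pairs keep their side of 0 under both lengths, while H2-Aa against H2-Ab1 and Psmb10 against Psmb7 have points on both sides.

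Cd74 and 3 classical class II chains were transcribed in every library, including the library with few leukocyte transcripts. The invariant chain Cd74 (chr18:60803848-60812652) stood at 471, 460 and 843 CPM. Of the chains, H2-Aa (chr17:34282744-34287823) stood at 211, 161 and 253 CPM, H2-Eb1 (chr17:34305867-34316674) at 107, 79.6 and 138 CPM, and H2-Ab1 (chr17:34257689-34269419) at 79.4, 77.2 and 185 CPM. All 4 were highest in library 3, and libraries 1 and 2 were nearly equal for Cd74 and H2-Ab1. H2-Ab1 made up 20.0%, 24.3% and 32.1% of the counts of the classical chains in libraries 1, 2 and 3. None was called variable, H2-Ab1 having the smallest p among them (edgeR unadjusted p = 0.0578, adjusted p = 0.749). Against the mean of libraries 2 and 3, library 1 differed by -0.58 for H2-Ab1 and -0.40 for Cd74, and by -0.98 and -0.85 with the trends removed. For H2-Aa and H2-Eb1 it differed by 0.06 and 0.03, and by 0.30 and -0.22 with the trends removed. H2-Eb2 and the pseudogene H2-Ea-ps had no count.

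Of the class II helpers, H2-DMa and H2-DMb1, whose products form the H2-DM dimer, stood at 91.4, 50.5 and 52.8 CPM and at 88.6, 53.1 and 56.8 CPM. Both were highest in library 1, unlike Cd74 and the classical chains, by 0.81 and 0.68 on the log2 scale and by 0.50 and 0.31 with the trends removed (edgeR adjusted p = 1 for both). H2-DMb2 was low at 0.303, 0.739 and 1.23 CPM. It shares a run of 221 coding bases with H2-DMb1, and 27.2% of the windows of H2-DMb1 also occurred in it. H2-Ob and H2-Oa, whose products form H2-DO, an inhibitor of H2-DM made mainly in B cells, had 0, 48 and 46 counts and 0, 10 and 22 counts. Set against 3 counts in library 1, H2-Ob was 10.6-fold higher in library 2 and 11.7-fold higher in library 3. H2-Oa was 2.21-fold and 5.59-fold higher on that basis. These folds leave out the counting error of libraries 2 and 3, so they are not strict lower limits. Neither had enough counts in library 1 to be tested. The pseudogene H2-Pb stood at 0, 0.0336 and 0.0385 CPM.

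The summed macrophage, B cell and pan-leukocyte markers spanned wider ranges over the libraries than the summed class II chains, and the summed dendritic cell markers did not. In bulk samples, fewer cells of a type and less RNA per cell cannot be told apart. The 12 macrophage and microglia markers summed to 17.9, 286 and 800 CPM, and Adgre1 was at 0 in library 1. Of the 8 that could be tested, 7 were called variable, all with library 1 lowest, against 0.437% of all tested genes called. The 7 B cell markers summed to 2.53, 66.7 and 71.7 CPM, with Ms4a1, Cd22 and Pax5 at 0 in library 1 and Cd79a and Cd79b called variable. The 6 pan-leukocyte markers summed to 5.46, 64.4 and 119 CPM, and Laptm5 was called variable. The 8 dendritic cell markers summed to 11.1, 13.7 and 16.03 CPM, mostly Zbtb46 and Ccr7. Flt3, Itgax, Clec9a and Cd209a were at 0 in library 1 and had few counts in the others. Of these, Flt3 was at 0 in library 2 as well. Zbtb46 (7.23, 7.19 and 5.09 CPM) and Xcr1 (0.556, 0.437 and 0.462 CPM) were highest in library 1. Ccr7 (2.48, 5.31 and 7.13 CPM) was lowest there, and Batf3 (0.860, 0.202 and 0.925 CPM) was lowest in library 2. The 6 endothelial markers summed to 90.4, 67.3 and 76.7 CPM, and the 8 T and NK cell markers to 5.21, 4.03 and 5.55 CPM.

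Beside these, the 11 class II chain genes summed to 577, 424 and 689 CPM. For each count of Ptprc, the common leukocyte antigen, there were 1861, 53.2 and 77.9 counts of Cd74 and 833, 18.7 and 23.3 counts of H2-Aa in libraries 1, 2 and 3. For each count of C1qb, a macrophage marker, there were 291, 11.7 and 6.48 counts of Cd74. In library 1, where Ptprc had only 5 counts, Cd74 had 9305 and H2-Aa 4167. H2-Ob and H2-Oa were at 0 in library 1, where the summed B cell, macrophage, pan-leukocyte and choroid plexus markers were all lowest. The part of any cell type in the class II levels was not tested.

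**Figure D4:**
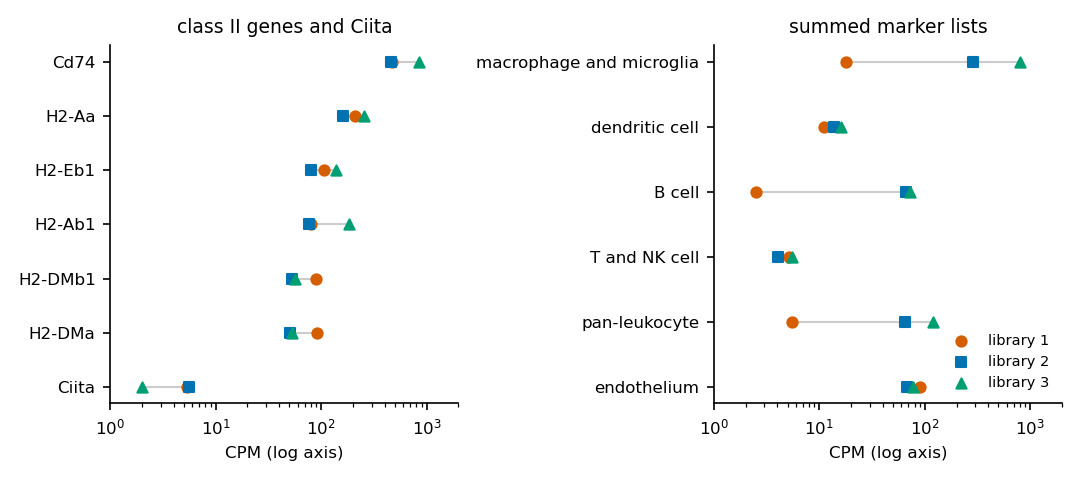
Levels in CPM on a log axis of Cd74, H2-Aa, H2-Eb1, H2-Ab1, H2-DMb1, H2-DMa and Ciita (left) and of the summed marker lists (right) in the 3 libraries; grey lines join the lowest to the highest library. For the 6 class II genes plotted, the library 1 points lie among or near the others, while its macrophage, B cell and pan-leukocyte sums, at 17.9, 2.53 and 5.46 CPM, lie far to the left.

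Between classes, H2-D1 lay above H2-Ab1 by 2.90 ± 0.77 on the log2(CPM per kb + 1) scale (SD, n = 3), with 3.42, 3.27 and 2.02 in libraries 1, 2 and 3. Cd74 lay above H2-Ab1 by 3.02 ± 0.21. Both held in 3 of 3 libraries (exact sign-flip permutation test, p = 0.25, adjusted p = 0.281), and per kilobase of the principal transcript they were 2.13 and 2.21. The chains of the I-A dimer could not be ordered: H2-Aa minus H2-Ab1 was 0.82, 0.48 and -0.11 (p = 0.50, adjusted p = 0.50, exact). That difference was 1.07 per kilobase of the principal transcript and -0.43 per kilobase of the longest transcript.

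Both transactivators were low. Ciita, the master regulator of class II, stood at 5.36, 5.64 and 2.00 CPM from 106, 168 and 52 counts. Nlrc5, its class I counterpart, stood at 1.31, 3.73 and 1.66 CPM from 26, 111 and 43 counts. Library 3, where Cd74 and the classical class II chains were highest, had the lowest Ciita level, and library 2 had the highest Nlrc5 level. Neither was called variable (edgeR adjusted p = 1 for both). Nlrc5 minus Ciita was -0.44, -0.15 and -0.02 in libraries 1, 2 and 3 on the log2(CPM per kb + 1) scale. The mean was -0.20 ± 0.21 (exact sign-flip permutation test, p = 0.25, adjusted p = 0.281), with both genes under 1 CPM per kb. At such levels the size of the difference rests on the pseudocount of 1. It was -0.60 with a pseudocount of 0.1, and -0.40 per kilobase of the principal transcript. The sign was the same in 3 of 3 libraries, but library 3 showed almost no difference.

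H2-Ke6 and the pseudogene H2-Pa were in none of the class lists used here. H2-Ke6, a dehydrogenase gene, stood at 1.16, 0.638 and 0.694 CPM, and 96.3% of its windows also lie in the annotated transcript Gm20427. H2-Pa had no count. Among other members, exons of H2-DMa overlap Brd2 by 360 bases and exons of Ciita overlap Dexi by 329 bases on the opposite strand, and Tapbp shares 149 bases with Zbtb22 on the same strand, so reads there could be lost or misassigned.

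Across the 28 tested members, library 1 was the highest of the 3 in 15 and the lowest in 6, against 39.7% and 40.3% of all tested genes. Library 1 lay above the mean of the others in 20 of the 28, and in 15 with the trends removed, against 7179 and 7524 of the 14409 genes tested, so the second count was near the background. The median difference was 0.29, or 0.20 with the trends removed, against -0.00 and 0.03 over all tested genes. Scaling by plain library totals moved the median of all tested genes to -0.11. The members' median GC content was 54.4%, against 49.8% over all tested genes. The 8 tested members with the largest differences above 0 with the trends removed were Psmb9, H2-T10, H2-T23, Psmb8, H2-T22, H2-M3, Psmb10 and Tap2. Of these, Psmb10 is on chromosome 8 and the other 7 are in the MHC region of chromosome 17, as are 23 of the 28 tested members.

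**Figure D5:**
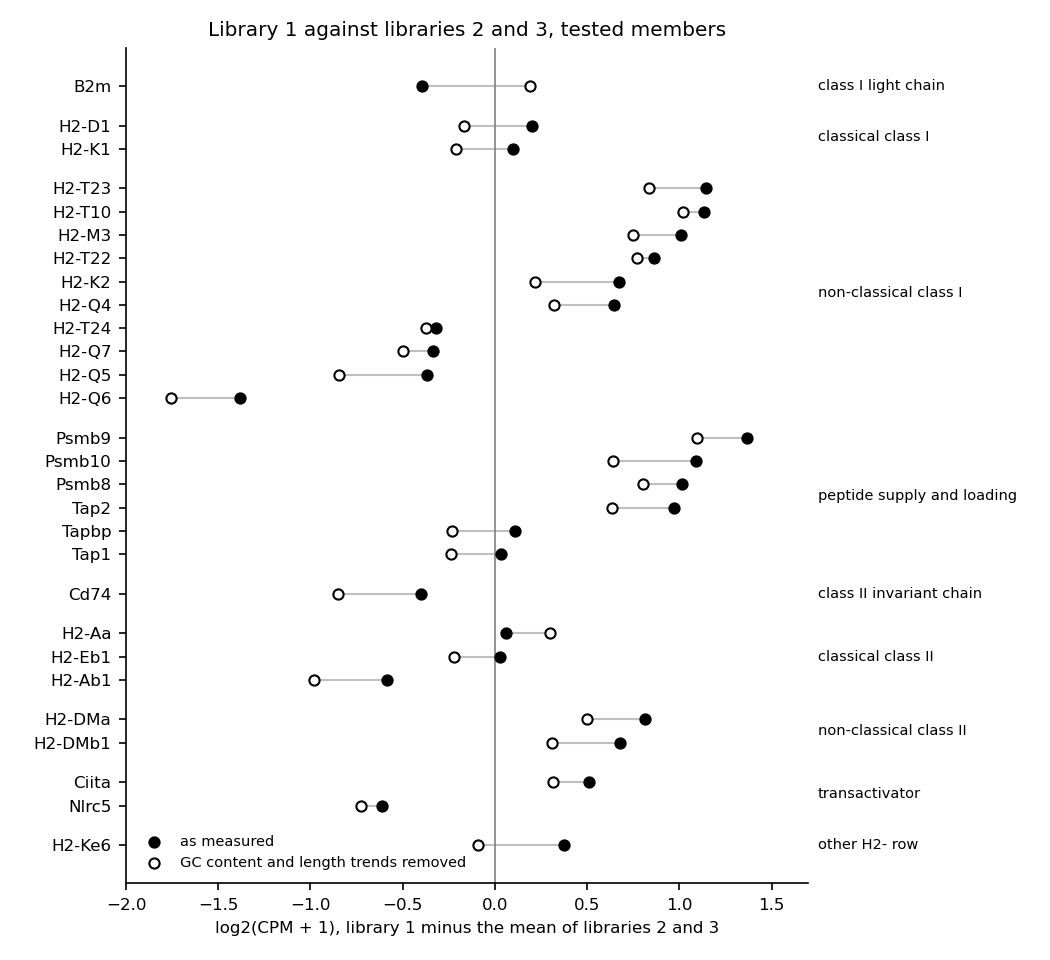
Difference of library 1 from the mean of libraries 2 and 3 for each tested member, on the log2(CPM + 1) scale, as measured (filled) and with GC content and length trends removed (open), grouped by class. The inducible proteasome subunits, Tap2, H2-T23, H2-T22, H2-T10 and H2-M3 stay above 0 under both, H2-Q6 is lowest at -1.38 and -1.76, and B2m, H2-D1, H2-K1, Tapbp, Tap1, H2-Eb1 and H2-Ke6 change side.

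The wider pathway was described from 5 lists of 64 genes. Over all tested genes, 0.437% were called variable and 7.04% had an unadjusted p under 0.05 in the goodness-of-fit test. Of 14 genes for class I loading and peptide supply, 14 were tested and 0 were called variable, with 1 at an unadjusted p under 0.05. This was Pdia3, at 140, 483 and 529 CPM (edgeR unadjusted p = 0.00685, adjusted p = 0.316). Library 1 differed from the mean of the others by -1.84 for Pdia3 on the log2 scale, and by -1.66 with the trends removed. Across the 14 genes, library 1 was highest in 7 and lowest in 5. The chaperones Hspa5 (2550.5, 2094 and 2648 CPM) and Calr (1752, 1372 and 1457 CPM), and the membrane chaperone Canx (244, 468 and 457 CPM), had the highest CPM, not divided by length as in the other lists below. Of 16 genes for class II processing and regulation, 16 were tested and 1 was called. That gene was Ctss, encoding cathepsin S, the protease that trims the invariant chain in antigen presenting cells, at 0.607, 14.5 and 39.5 CPM (edgeR adjusted p = 5.7e-06). It was lowest in library 1, like the macrophage markers. Against the mean of libraries 2 and 3, library 1 differed by -3.96 for Ctss and -0.40 for Cd74 on the log2 scale. With the trends removed the differences were -3.84 and -0.85. The proteases Ctsd (5100.2, 3413 and 3512 CPM), Ctsb (2785, 1962 and 2252 CPM) and Ctsl (1391, 1062 and 1027 CPM) had the highest CPM of that list.

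Of 11 interferon-gamma signalling genes, 10 were tested and 0 were called, with 0 at an unadjusted p under 0.05. Ifng itself had no count, while the target and transcription factor Irf1 stood at 278, 212 and 182 CPM, the kinase Jak1 at 103, 153 and 147 CPM and the receptor chain Ifngr1 at 109, 128 and 145 CPM. Of 9 co-stimulation and inhibition genes, 5 were tested and 0 were called, with 3 at an unadjusted p under 0.05, against 7.04% of all tested genes. Those 3 did not move alike. Cd80 (1.77, 3.02 and 9.83 CPM) and Cd40 (1.16, 0.638 and 3.31 CPM) were highest in library 3, and Tnfsf9 in library 1. Icosl (33.4, 11.2 and 17.6 CPM), Cd274 (19.0, 22.001 and 12.4 CPM) and Tnfsf9 (14.5, 3.29 and 12.5 CPM) had the highest CPM. Cd86, the co-stimulatory ligand of professional presenting cells, stood at 0, 0.705 and 6.05 CPM. Of 14 class I-like genes outside the H2- rows, 8 were tested and 0 were called, with 2 at an unadjusted p under 0.05. Fcgrt, which pairs with B2m as the neonatal Fc receptor, had the highest CPM at 2134, 1216 and 1053, followed on that scale by the iron regulator Hfe (212, 156 and 123 CPM) and Mr1, which presents vitamin metabolites (38.5, 74.9 and 58.2 CPM).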

How the data were processed

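The deposited values were raw counts per gene in 1 table of 3 libraries, whole numbers with no normalization, although the labels name a normalized table. Per the labels' protocols, 2 ng of RNA was amplified over 12 cycles and libraries were sequenced as paired 50-base reads. Per the submitters' processing notes, HTSeq 0.5.3, DESeq2 1.22.1 and the mm10 build were used, with roles not stated; the aligner, annotation and strand setting were not given in the sources used here. Rows for reads assigned to no gene (45.6%, 39.1% and 39.6% of all reads) were left out.

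Identifiers were matched to GENCODE M21 (GRCm38) for 46488 gene rows, all 54 members included, for coordinates and lengths. TMM factors came from edgeR 4.0.16 under R 4.3.3. Genes passing filterByExpr at a minimum count of 10 were tested by goodness of fit at the trended dispersion, with Benjamini-Hochberg adjustment at 0.05. Since there was 1 group, no contrast existed. Log2 values used a pseudocount of 1, which understates the change of low genes. The test was checked on simulated counts of 14409 genes with 200 changed, giving 1 false call. Pairs of genes were tested by sign flips over libraries. Trends on GC content and log2 exon length were splines with 5 degrees of freedom. PCR copies were not marked by molecular identifiers, so reads are not independent molecules and the limits for a count of 0 cover counting error only.

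Every member was to be named, by library at a mean of 1 CPM or more and otherwise by count and range; of each pathway list, the 3 most abundant genes and any called variable. The members, lists and tests were chosen with earlier results of these data known. Alternatives were other size factors (DESeq2 1.42.0 and plain totals), filters, dispersion, trend removal, pseudocount and lengths, and leaving out each library.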

Additional observations from a re-analysis of the deposited data

Results flagged for a closer look

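Reads that the counting assigned to no gene are outside the gene comparisons, and their shares stood well above 0. Reads aligned to more than 1 place made up 16.5% of all reads on average over the 3 libraries, and reads falling on more than 1 gene 1.35%. Reads aligned outside genes made up 8.89% and reads not aligned 14.7%. How many of the multiply placed reads came from H2 genes was not tested.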

How the results depend on the processing

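In each of the 9 alternatives to the fit, 0 members were called variable, and from 0 to 3 had an unadjusted p under 0.05. The 63 genes called overall became 138 with no filter on low counts, 186 with a mean of at least 10 counts and 101 with the GC and length trends removed, and from 12 to 28 when a library was left out (27 without library 1, 28 without library 2 and 12 without library 3). The cause was not tested, beyond the changed number of genes tested and, for the last, fewer samples. Of 72 alternatives for the 9 pairs, 71 kept their direction. H2-Aa minus H2-Ab1 turned from 0.40 to -0.43 with the length of the longest transcript, which differs from the exon length used. Removing trends leaves the mean of a pair as it was by construction. Scaling by plain library totals nearly cancels within a library, so neither alternative could readily turn a pair. Direction here is the sign of the mean, so Psmb10 minus Psmb7 counts as kept at 0.30 per kilobase of the principal transcript. No paired analysis was possible because there was a single group. Depth limits the 16 members with counts but a mean below 1 CPM, of which H2-Ke6 alone was tested.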
